A study of Mus musculus with 4 samples.

Results

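The genes examined here encode the CCAAT/enhancer-binding proteins (C/EBP) Cebpa, Cebpb, Cebpd, Cebpe and Cebpg, together with Ddit3, which encodes the C/EBP homologous protein CHOP. The members were taken as all probe sets of the value table annotated to exactly 1 gene symbol that is one of these 6 names. This gave 9 probe sets for 5 genes, of 45037 probe sets that are not controls and 17097 genes in all, and no probe set carried the name Cebpe. The samples were mouse brown adipocytes that expressed an shRNA against Blnc1 (brown fat lncRNA 1), with 2 arrays, or a scrambled shRNA, with 2 arrays. Cells of both groups had been differentiated for 6 days, and the arrays are described as biological replicates. The labels used here do not say how the hairpins were delivered, how many hairpins target Blnc1, or whether the cells were a line or a primary culture. Blnc1 itself is named by no probe set in the annotation used, so its level was not analysed here.

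C/EBP proteins belong to the basic leucine zipper (bZIP) class of transcription factors, which bind DNA as dimers and can pair with each other. In fat cells, C/EBP beta and delta are induced early in differentiation and act before C/EBP alpha, which works with the nuclear receptor PPAR gamma to switch on and maintain genes of the mature fat cell. C/EBP beta also partners with PRDM16 in brown fat cells. C/EBP gamma lacks a strong activation domain and acts through its partners, C/EBP epsilon is a factor of maturing granulocytes, and CHOP is a stress-induced member that pairs with the others and keeps them from most C/EBP sites.

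The scale of the values and the state of the samples bear on every comparison. Values are log2 expression values, and the background was set at 2.55, the brightest reading on any array among antigenomic controls, whose probes match no mouse gene (3 to 24 G/C bases each). All 9 family probe sets were above it on all 4 arrays. The 4 measured general adipocyte markers were above background in both groups, and of 6 brown adipocyte markers 5 were above it in knockdown and 6 in scramble cells. By the limma test given below, 1 of these 6 was higher and 5 were lower in knockdown. Of all genes, 11.4% were higher and 7.18% lower. The 6 markers had a median log2 fold change of -0.91. Their summed linear signal was 1126 to 1212 in knockdown and 2016 to 2170 in scramble. Controls for RNA quality differed between the groups: at Actb the 3'-end control exceeded the 5'-end one by 1.77 and 1.88 log2 units on the knockdown arrays, against 0.99 and 1.15 on the scramble arrays. At Gapdh the same difference was 0.34 and 0.40 on the knockdown arrays and 0.09 and 0.04 on the scramble arrays, and the 18S ribosomal RNA control read 6.64 and 7.01 in knockdown and 5.13 and 4.43 in scramble. Markers of hepatocytes, a cell type known to express Cebpa strongly, differed as well. By the same limma test, 7 of 9 measured were lower and 0 higher in knockdown, against the same shares of all genes. Above background were 7 in knockdown and 8 in scramble. The summed linear signal of the 9 was 70.8 to 96.6 in knockdown and 279 to 297 in scramble. The part of these differences in the C/EBP values was not tested.

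Cebpa was the 1 family gene whose change passed the test, and it was lower in Blnc1 knockdown cells. Cebpd was lower on both knockdown arrays without passing, Cebpb and Cebpg were nearly level at their brightest probe sets, and Ddit3 was higher on both knockdown arrays without passing. The test was limma with Benjamini-Hochberg adjustment over all genes at 0.05, each gene represented by its brightest probe set. With it, 0 of 5 measured family genes were higher and 1 was lower, against 11.4% of all genes higher and 7.18% lower, or 18.5% called in either direction. The median log2 fold change of the 5 genes was -0.07, and that of all genes -0.04. A count of 1 among 5 is close to the share among all genes, so the count says little of the family as a group. At an unadjusted p under 0.05, the family counts were 0 higher and 2 lower, where 17.4% of all genes were higher and 16.4% lower.

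Direction was also read array by array. On 6 of the 9 family probe sets both knockdown arrays lay below both scramble arrays, where 34.1% of all probe sets did so. On 2 they lay above, where 24.7% did, and on 1 the groups overlapped. All 3 probe sets of Cebpb are among the 6, so these are not 6 separate genes. By brightest probe set, both knockdown arrays lay below in 3 of 5 family genes and above in 1. Among all 17097 genes they lay below in 5872 and above in 4839. When each probe set was tested on its own, with adjustment over all probe sets, 1 of the 9 was called, a lower one, where 14.1% of all were called and 5.38% called lower. Fewer cells of a type and less RNA per cell cannot be told apart in these bulk samples.

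**Figure D1:**
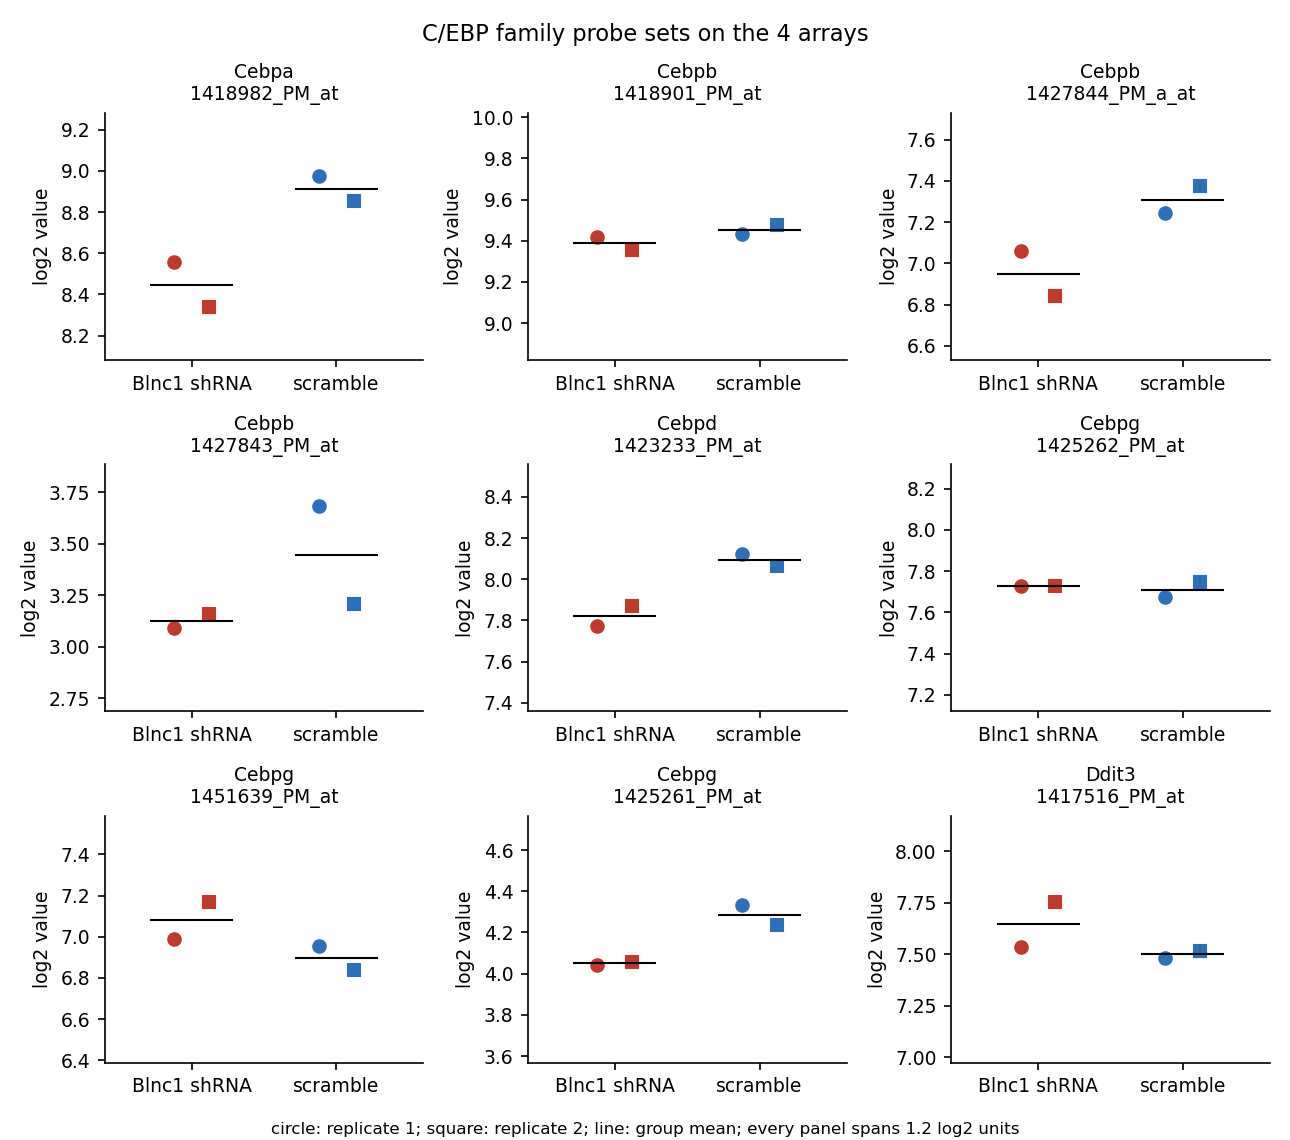
Log2 value (y axis, each panel spanning the same range) of the 9 C/EBP family probe sets on the 2 Blnc1 shRNA arrays (red, left) and the 2 scramble arrays (blue, right); circles are replicate 1, squares replicate 2 and lines the group means. Both knockdown values of Cebpa, 8.56 and 8.34, lie below both scramble values, 8.97 and 8.85, while those of the brightest Cebpg probe set lie among the scramble values.

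Cebpa, the gene of C/EBP alpha (Entrez Gene 12606), had 1 probe set, 1418982_PM_at. It read 8.56 and 8.34 on the knockdown arrays, against 8.97 and 8.85 on the scramble arrays. The groups did not overlap, and the gap between the groups' nearest arrays was larger than either gap between replicates, 0.22 in knockdown and 0.12 in scramble. The means were 8.45 ± 0.16 in knockdown and 8.91 ± 0.08 in scramble (log2, SD, n = 2 each). This is a log2 fold change of -0.47 with a standard error of 0.12 and a 95% confidence interval of -0.75 to -0.19 (limma adjusted p = 0.0368). Of all genes, 5.15% had a lower log2 fold change, and 15.1% had a larger change in either direction.

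The call for Cebpa was lost when any array but scramble replicate 2 was left out. Fewer of all genes were called then too, so the loss does not show that the call hung on 1 array. The log2 fold change of Cebpa was -0.41 without scramble replicate 1 and -0.53 without scramble replicate 2. With knockdown replicate 1 left out it was -0.58, and with knockdown replicate 2 left out it was -0.36. After each array was centred on its median it was -0.40 (limma adjusted p = 0.0564). It was negative under all 11 alternatives and called under 7 of them. Of 9 measured hepatocyte markers, 7 were lower too, where 7.18% of all genes were, and 2 were not called. The marker Alb, the serum albumin gene, was picked with its value in view. It read 4.43 and 2.50 on the knockdown arrays and 6.28 and 5.70 on the scramble arrays. The part of hepatocyte signal in the Cebpa value was not tested.

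**Figure D2:**
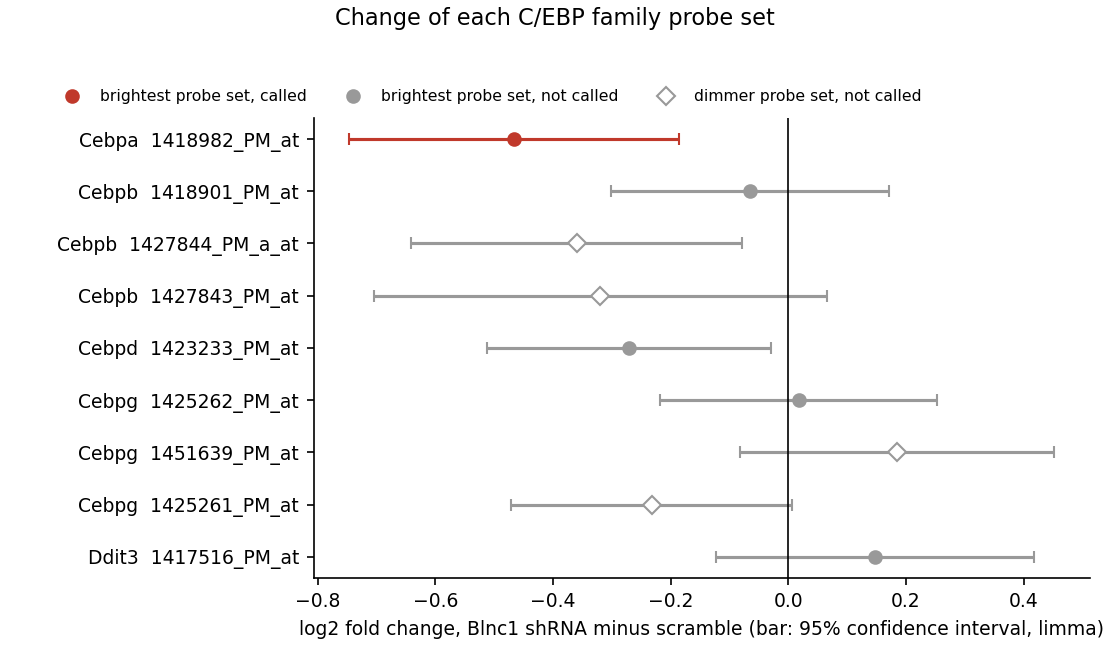
Log2 fold change of each C/EBP family probe set, Blnc1 shRNA minus scramble, with its 95% confidence interval from limma; filled circles are the brightest probe set of a gene, open diamonds the dimmer ones, and red marks an adjusted p under 0.05 over all probe sets. The interval of Cebpa runs from -0.75 to -0.19, and those of the brightest Cebpb, Cebpg and Ddit3 probe sets include 0.

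The control regions of the family differ in their sequence. Shown are those of Cebpa, the gene that changed, Cebpg, which lies near it and was not called, and Cebpb, the early factor. Each sequence is the 250 bases before the start of transcription, 5′ to 3′ on the gene's strand, from RefSeq (GRCm38.p6), and 4 of the 6 members had an entry. Cebpa lies at chr7:35119043-35119292 on the plus strand, Cebpg at chr7:35056567-35056816 on the minus strand and Cebpb at chr2:167688665-167688914 on the plus strand. These are promoter regions and not the places that the probes read. Capitals mark matches on either strand to the core C/EBP motif TTGCG, the whole C/EBP site TTGCNNAA, the cyclic AMP response element core TGACG, the C/EBP-ATF site TGATGNAA, the CCAAT box and the TATA box TATAAA. No matches overlapped one another.
Cebpa: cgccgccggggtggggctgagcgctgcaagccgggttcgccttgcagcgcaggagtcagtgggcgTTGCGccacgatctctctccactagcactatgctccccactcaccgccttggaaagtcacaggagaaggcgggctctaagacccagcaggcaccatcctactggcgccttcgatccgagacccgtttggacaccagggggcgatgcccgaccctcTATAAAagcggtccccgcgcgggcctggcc
Cebpg: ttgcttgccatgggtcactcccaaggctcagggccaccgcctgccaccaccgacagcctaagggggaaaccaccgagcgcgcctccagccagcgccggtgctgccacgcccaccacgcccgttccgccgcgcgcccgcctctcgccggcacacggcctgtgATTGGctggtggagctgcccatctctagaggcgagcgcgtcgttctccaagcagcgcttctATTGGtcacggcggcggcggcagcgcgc
Cebpb: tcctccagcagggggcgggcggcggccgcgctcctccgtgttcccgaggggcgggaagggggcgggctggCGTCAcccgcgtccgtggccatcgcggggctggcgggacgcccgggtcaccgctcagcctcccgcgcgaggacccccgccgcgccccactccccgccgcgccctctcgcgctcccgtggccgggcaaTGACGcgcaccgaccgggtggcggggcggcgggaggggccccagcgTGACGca
The Cebpa window held 1 TTGCG, beginning 185 bases before the start, and 1 TATAAA, beginning 30 bases before it. The Cebpb window held 3 matches to TGACG, beginning 180, 53 and 7 bases before the start. The Cebpg window held 2 CCAAT boxes, both on the opposite strand, as was the 1 of Ddit3 (not shown). Over all 32851 promoter windows of the same length, TTGCG was found in 14.5%, TGACG in 17.8%, CCAAT in 33.8% and TATAAA in 12.4%. The whole C/EBP site, found in 9.56% of windows, and the C/EBP-ATF site, found in 3.45%, were in none of the 4 family windows. These are matches of letters and do not show binding.

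Cebpb, the gene of C/EBP beta (Entrez Gene 12608), had 3 probe sets that did not give the same size of change. The brightest, 1418901_PM_at, read 9.42 and 9.36 on the knockdown arrays and 9.43 and 9.48 on the scramble arrays. Both knockdown arrays were below both scramble arrays, by a mean difference about as large as the gap of 0.06 between the knockdown replicates, with a log2 fold change of -0.07 and a 95% interval of -0.30 to 0.17 (limma adjusted p = 0.692). A second probe set, 1427844_PM_a_at, is of a type that can detect several transcripts of 1 gene. It read 7.06 and 6.84 on the knockdown arrays, against 7.25 and 7.37 on the scramble arrays. Here the groups stood apart, with a log2 fold change of -0.36 and a standard error of 0.12 (limma adjusted p over probe sets 0.093). The dimmest, 1427843_PM_at, read 3.09 and 3.16 in knockdown and 3.68 and 3.21 in scramble, where the replicates differed by 0.48 (log2 fold change -0.32, limma adjusted p over probe sets 0.239). Within each array, 1427844_PM_a_at was 2.36 and 2.51 log2 units below the brightest probe set in knockdown and 2.19 and 2.10 below it in scramble. The fold changes of these probe sets thus differed by -0.29, a difference that was not tested. An exact two-sided permutation test of 2 arrays against 2 cannot go below p = 0.333. Averaged over its 3 probe sets, the Cebpb value was -0.25 (log2 fold change, limma adjusted p = 0.0961).

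Cebpd, the gene of C/EBP delta (Entrez Gene 12609), is induced with Cebpb early in fat cell differentiation. Its single probe set, 1423233_PM_at, read 7.77 and 7.87 on the knockdown arrays, against 8.12 and 8.07 on the scramble arrays. The groups did not overlap, and replicates differed by 0.10 in knockdown and 0.06 in scramble. The log2 fold change was -0.27 with a standard error of 0.10 and a 95% interval of -0.51 to -0.03 (limma adjusted p = 0.113, with an unadjusted limma p of 0.0328). Among the 11 alternatives its adjusted p ran from 0.0147, in eBayes with a trend, to 0.414 without knockdown replicate 1, and all 11 gave a negative value. Of all genes, 16.9% had a lower log2 fold change.

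Cebpg, the gene of C/EBP gamma (Entrez Gene 12611), also had 3 probe sets, and their signs differed. The brightest, 1425262_PM_at, read 7.73 and 7.73 in knockdown and 7.67 and 7.75 in scramble, so the knockdown values lay between the scramble values. Its log2 fold change was 0.02, with a 95% interval of -0.22 to 0.25 (limma adjusted p = 0.924). The sign turned after quantile normalization, to -0.04. The probe set 1451639_PM_at read 6.99 and 7.17 in knockdown, above its 6.95 and 6.84 in scramble, and the dimmest, 1425261_PM_at, read 4.04 and 4.06 in knockdown, below its 4.33 and 4.23 in scramble. Their log2 fold changes were 0.18 and -0.23 (limma adjusted p over probe sets 0.324 and 0.177). None of the 3 was called.

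Ddit3, the gene of CHOP (Entrez Gene 13198), had 1 probe set, 1417516_PM_at, which read 7.54 and 7.76 on the knockdown arrays and 7.48 and 7.51 on the scramble arrays. Both knockdown arrays were above both scramble arrays, but the gap between the knockdown replicates, 0.22, was larger than the mean difference of 0.15. The 95% interval ran from -0.12 to 0.42 (limma adjusted p = 0.412). Knockdown replicate 2 carried most of it: without that array the log2 fold change was 0.04, and without knockdown replicate 1 it was 0.26. Cebpe had no probe set under its own name and was not analysed here.

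**Figure D3:**
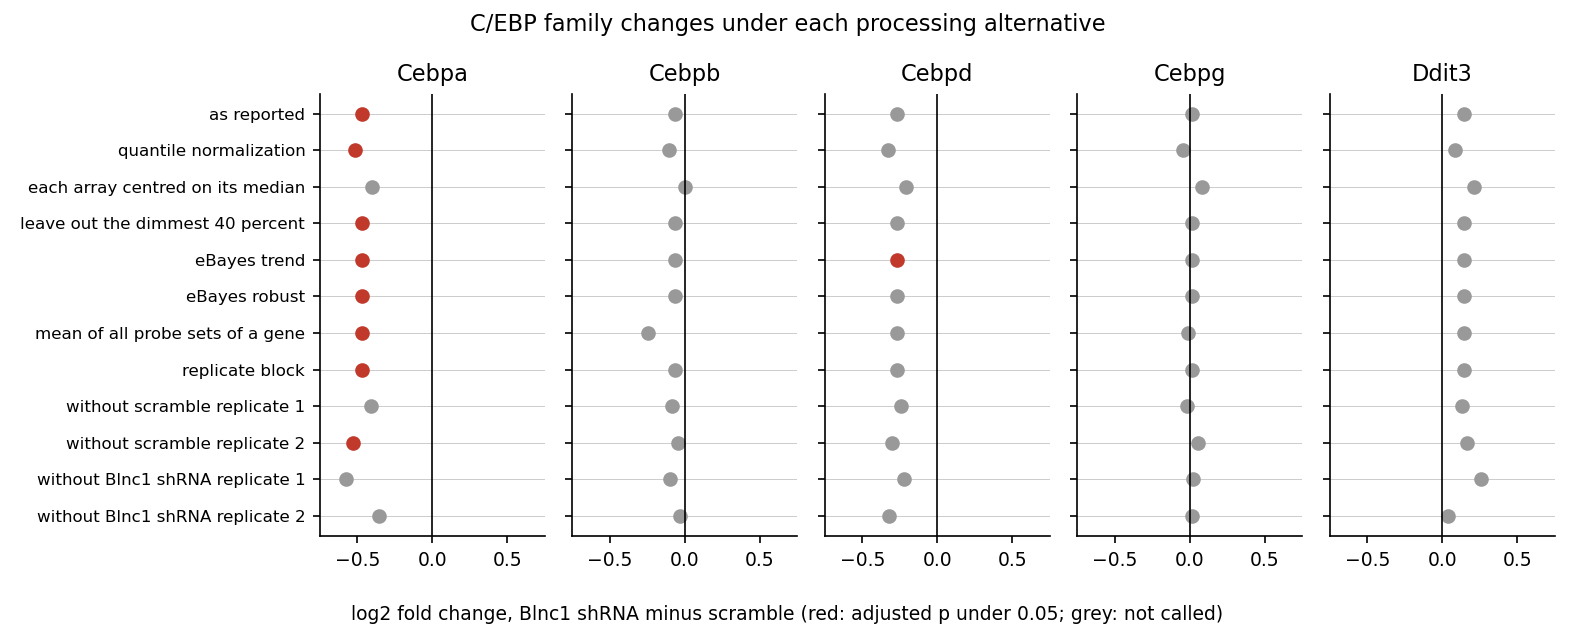
Log2 fold change of the 5 measured C/EBP family genes, Blnc1 shRNA minus scramble, as reported and under 11 alternatives (rows); red marks an adjusted p under 0.05. Cebpa is negative in every row and called in 7 of the 11 alternatives, Cebpd is called in 1, and Cebpb, Cebpg and Ddit3 in 0.

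The genes whose pattern over the 4 arrays was most like that of each member were found among 11460 others above background on all arrays. Likeness was the root mean square distance between 2 genes' deviations from their own means, a description over 4 arrays that share their groups. Nearest to Cebpa were Bzw2, Sdhaf3 and Trip10, at 0.015 to 0.019 log2 units, with log2 fold changes of -0.45, -0.47 and -0.44. Nearest to Cebpb were Rras, Stom and Ndufc1, at 0.0018 to 0.006. Nearest to Cebpd were Rdh14, Elp3 and Mapkbp1, at 0.0058 to 0.0096, with log2 fold changes of -0.27, -0.27 and -0.25. Cebpg lay nearest to Dtymk, Asb3 and Asns, the asparagine synthetase gene, at 0.0068 to 0.0098, and Ddit3 to Tnrc6c, Parp4 and Telo2, at 0.0043 to 0.008. With 11460 genes and 4 arrays, a match says only that the values run alike here.

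Proteins that bind, modify or turn over C/EBP factors were next. Of 24 measured partner and regulator genes, 6 were higher, 1 was lower and the other 17 stayed uncalled, at a median of 0.06 (log2 fold change). Of all genes, 11.4% were called higher and 7.18% lower. Probe sets disagreed for some members. Gsk3b was uncalled at its brightest, but its 4 probe sets had log2 fold changes of -0.11 to 2.13. Their mean was called (0.72, limma adjusted p = 0.0137). Kmt2c was counted as higher, but its 4 probe sets ran from -0.52 to 0.46, with a mean of 0.007 (limma adjusted p = 0.96). Trib2, a pseudokinase gene whose product is known to direct C/EBP alpha to degradation, read 4.21 and 4.33 on the knockdown arrays, against 2.99 and 2.92 on the scramble arrays. It was 2.49-fold higher (limma adjusted p = 0.000779) and was called under all 11 alternatives, though its other probe set was at background and the mean of both gave a log2 fold change of 0.68. Crebbp, a histone acetyltransferase and coactivator gene, was 2.44-fold higher (limma adjusted p = 0.0109), with scramble values of 4.74 and 3.99 that differed more than those of knockdown, 5.73 and 5.57; without knockdown replicate 1 it was not called. Smarca2, a chromatin remodelling ATPase gene, was 1.63-fold higher (limma adjusted p = 0.00535), and Atf5, a bZIP partner, 1.50-fold (limma adjusted p = 0.0131). Atf5 also belongs to the bZIP list and to the list of CHOP and ATF4 targets, so its call enters each of these counts. The lower gene, named after its value was seen, was Kmt2d, a histone H3 methyltransferase gene that acts at enhancers with C/EBP factors (log2 fold change -0.44, limma adjusted p = 0.0331). With either knockdown array left out, fewer members were called higher, and fewer of all genes were too. Kmt2d was not called without either knockdown array, without scramble replicate 1 or after median centring.

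Other bZIP genes were examined because they share the fold and, in part, the dimer partners of the family. Of 39 measured, 6 were higher and 2 lower, 31 stayed uncalled, and the median was 0.04. The 8 calls of 39 are near the 18.5% called among all genes. Creb1, the cyclic AMP response element binding protein gene, was 2.35-fold higher at its brightest probe set (limma adjusted p = 0.00241), reading 6.14 and 6.31 in knockdown and 5.17 and 4.82 in scramble. It had 6 probe sets, and the 3 above background had log2 fold changes from -0.08 to 1.23, and the mean of all 6 was not called (0.13, limma adjusted p = 0.28). Creb3l2 and Nfe2l2, an endoplasmic reticulum stress factor and an antioxidant response factor, were 1.90-fold and 1.62-fold higher, but the other probe set of each had a negative log2 fold change, -0.26 and -0.36. Maf read 3.10 and 2.98 in knockdown and 2.10 and 1.93 in scramble, below background (limma adjusted p = 0.00199), so no fold is given. The lower genes were Maff and Fosb, the second at background in both groups. Leaving out either knockdown array gave fewer called members in each direction, and fewer calls among all genes as well.

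Of 41 measured factors that control C/EBP genes during fat cell formation, 11 were higher and 2 lower, where 11.4% of all genes were higher and 7.18% lower, and 28 stayed uncalled. The median was 0.01, and -0.0029 once the arrays were quantile normalized. Klf4, a factor known to bind the Cebpb promoter early in adipogenesis, read 4.72 and 5.08 on the knockdown arrays, against 3.73 and 3.81 on the scramble arrays (2.19-fold higher, limma adjusted p = 0.00295). Klf6 was 1.72-fold higher (limma adjusted p = 0.00653), with all 3 of its probe sets positive, at log2 fold changes of 0.55 to 1.39. Il6st, the shared receptor subunit of the interleukin 6 family, was 1.63-fold higher at its brightest probe set, but 1 of its other probe sets had a value of -0.09 and the mean of all was not called. Creb1, which is known to induce Cebpb, belongs to this list too. The lower genes were Stat3 and Id2, named after their values were seen. Stat3, a signal transducer downstream of that receptor, read 6.30 and 6.36 in knockdown and 6.99 and 6.93 in scramble (log2 fold change -0.63, limma adjusted p = 0.00744). Fewer members, and fewer of all genes, were called in each direction with either knockdown array left out. Averaging each gene's probe sets gave 6 higher members. By that measure 1792 of all genes were higher, against 1941 by brightest probe set. Of 6 measured preadipocyte markers, 5 were higher and 0 lower in knockdown, with a summed linear signal of 152 to 153 there and 88.4 to 104 in scramble; their part in these counts was not tested.

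**Figure D4:**
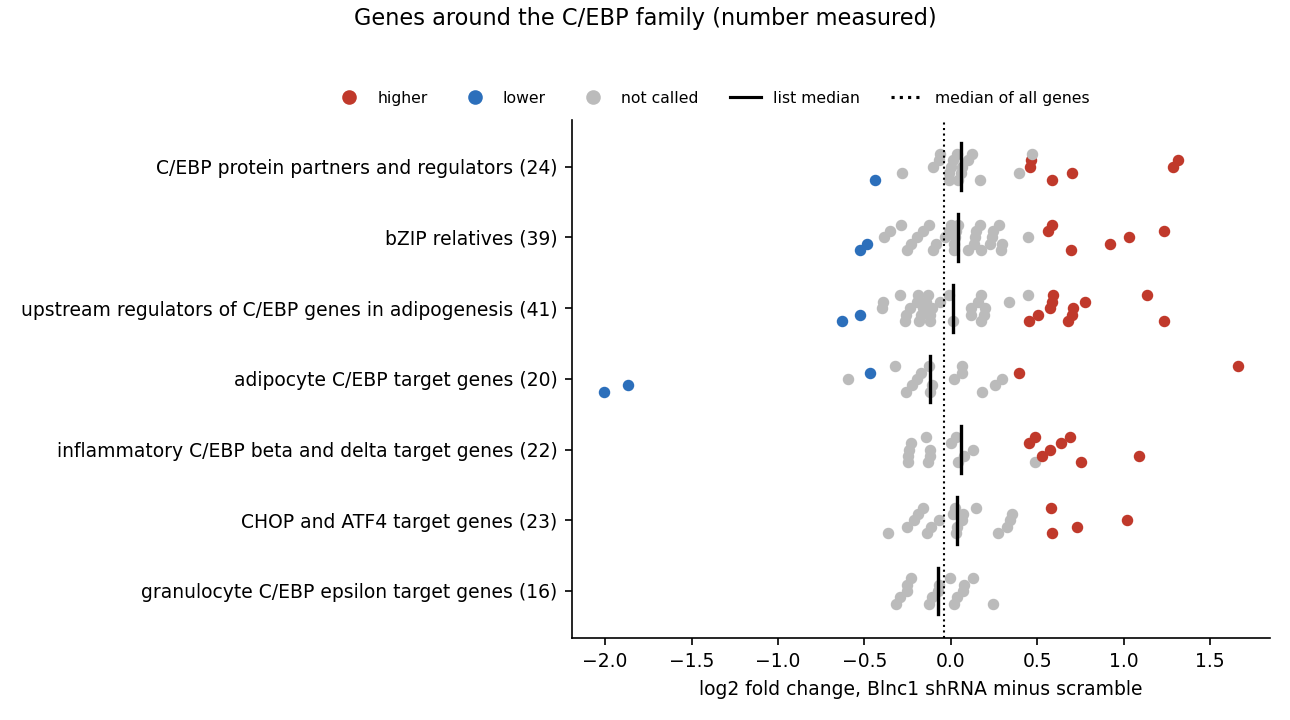
Log2 fold change, Blnc1 shRNA minus scramble, of every measured gene in 7 lists around the C/EBP family; red points were called higher, blue points lower and grey points were not called, black bars are list medians and the dotted line is the median of all genes, -0.04. The list medians lie between -0.12 and 0.06, and Cidea, Ucp1 and Lep lie farthest from the line.

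Of 20 measured genes known as C/EBP targets in fat cells, 2 were higher (Lep and Cd36), 3 were lower (Cidea, Ucp1 and Cebpa itself) and 15 were not called, with a median of -0.12. The shares among all genes were 11.4% higher and 7.18% lower. By an unadjusted limma p under 0.05, 4 members were higher and 6 lower, where 17.4% of all genes were higher and 16.4% lower. The lower calls beside Cebpa were the brown fat genes: Cidea, a lipid droplet protein gene, read 6.29 and 6.37 in knockdown and 8.28 and 8.40 in scramble, and Ucp1, the heat-producing uncoupling protein gene, 5.53 and 5.98 in knockdown and 7.51 and 7.73 in scramble. Lep, the leptin gene, went the other way, with 5.73 and 5.97 in knockdown and 4.48 and 3.89 in scramble. Cd36, a fatty acid transporter gene, was 1.32-fold higher (limma adjusted p = 0.0383), a call lost with the mean of its probe sets, with the replicate block (limma adjusted p = 0.0507) and without 3 of the 4 arrays in turn. Some classical C/EBP alpha targets, picked with their values in view, were not called. All those named here had positive values, unlike the list median. By brightest probe set, both knockdown arrays lay below both scramble arrays in 10 of the 20 members and above in 7. Among all 17097 genes they did so in 5872 and 4839. The log2 fold change was 0.26 for the glucose transporter gene Slc2a4 and 0.18 for the desaturase gene Scd1. For the fatty acid binding protein gene Fabp4 it was 0.02, for Adipoq 0.07 and for Retn 0.30. The limma adjusted p-values of these 5 genes were 0.0981 to 0.91. Scd1 and Fabp4 read above 12 on all 4 arrays, near the highest value in the table, 12.36. The dimmer probe set of Scd1 had a log2 fold change of 0.67, and the mean of both was called (0.43, limma adjusted p = 0.0179), while the 3 probe sets of Fabp4 ran from -0.69 to 0.15. After quantile normalization 5 members were lower, where 1564 of all genes were. After median centring 2 members were lower, where 844 of all genes were, against 1228 as reported.

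Inflammatory and acute phase genes that C/EBP beta and delta are known to activate had 8 higher, 0 lower and 14 uncalled members among 22 measured, with a median of 0.06, where 11.4% of all genes were higher and 7.18% lower. At an unadjusted p under 0.05 the numbers were 9 higher and 2 lower, where 17.4% of all genes were higher and 16.4% lower. Saa3, an acute phase protein gene, read 5.43 and 5.43 on the knockdown arrays, against 4.49 and 4.19 on the scramble arrays (2.13-fold higher, limma adjusted p = 0.00252). Orm2, another acute phase gene, was 1.68-fold higher (limma adjusted p = 0.00518), and both genes were called under all 11 alternatives. The chemokine gene Ccl5 and the macrophage growth factor gene Csf1 were 1.55-fold and 1.61-fold higher, but the mean of the probe sets of Csf1 was not called, and 1 of them had a log2 fold change of -0.17. Hp, the haptoglobin gene, had a log2 fold change of 0.004, and Lcn2 one of 0.08. Fewer members were higher with either knockdown array left out, and so were fewer of all genes. Of 6 leukocyte markers, 1, the macrophage gene Adgre1, was higher, 4 were above background in knockdown and 3 in scramble, and their summed linear signal was 53.0 to 55.7 in knockdown and 46.5 to 48.3 in scramble; their part was not tested.

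Of 23 measured targets of CHOP and its partner ATF4, 4 were higher and 0 lower, and 19 stayed uncalled, where 18.5% of all genes were called and 11.4% were higher. The median was 0.04, and -0.04 once the arrays were quantile normalized. At an unadjusted p under 0.05, 8 were higher and 1 was lower, where 17.4% of all genes were higher and 16.4% lower. The higher genes were Psat1, a serine synthesis gene (2.03-fold, limma adjusted p = 0.00171), Nupr1, a stress-induced nuclear protein gene (1.66-fold, limma adjusted p = 0.00775), Atf5 and Cth, a cysteine synthesis gene (1.50-fold, limma adjusted p = 0.0308). Some genes often used to read CHOP activity, picked with their values in view, were not called. These had log2 fold changes of -0.07 for Trib3, -0.14 for Ppp1r15a and 0.06 for Chac1 (limma adjusted p = 0.772, 0.496 and 0.774). Averaging each gene's probe sets gave 8 higher members and 1 lower one, where 1792 of all genes were higher and 1223 lower. With either knockdown array left out, fewer members and fewer of all genes were higher. Herpud1 and Hspa5, genes of the endoplasmic reticulum stress response, had log2 fold changes of -0.36 and 0.34, of opposite sign and not called (limma adjusted p = 0.0893 and 0.0607). With the mean of each gene's probe sets both were called, still with opposite signs (-0.53 and 0.40, limma adjusted p = 0.024 and 0.029).

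Granulocyte genes known to depend on C/EBP epsilon gave no call. Of 16 measured, 0 were higher and 0 lower by limma, where 18.5% of all genes were called. At an unadjusted p under 0.05, 1 was higher and 1 lower, where 17.4% and 16.4% of all genes were, and 6 were at background in both groups. Lcn2, which the inflammatory list holds too, was above background on all 4 arrays, at 6.19 ± 0.02 in knockdown and 6.11 ± 0.25 in scramble (log2, SD, n = 2 each). The neutrophil granule gene Mpo was at background in both groups, with means of 2.00 in each.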

How the data were processed

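Total RNA (250 ng per sample) of 4 samples was hybridised to Affymetrix 3' expression arrays, 1 array each, with 2 biological replicates per group, per the labels. The deposited values are log2 expression values. The submitters' processing notes name affy, RMA and limma; the settings and the arrays normalized together are not given in the sources used here. No reads underlie these values, and the number of arrays limits the precision.

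The 104 control probe sets were left out, and the deposited log2 values were fitted with lmFit and eBayes (limma 3.58.1, R 4.3.3) with no covariate. A gene was represented by its brightest probe set with exactly 1 symbol in the platform annotation. P-values were adjusted by the Benjamini-Hochberg method over 17097 genes, or over 45037 probe sets where a single probe set is reported, at a threshold of 0.05. The fit left 2 residual degrees of freedom and added 4.93 from the prior. Promoters and gene order came from RefSeq (GRCm38.p6), and figures were drawn with matplotlib 3.10.9.

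The members and all gene lists were chosen with earlier results of these data known. Named were all members, up to 4 called genes per list with the largest log2 fold change in either direction, and the 3 genes most like each member. Lower genes of a list, uncalled targets (such as Slc2a4, Hp or Trib3) and single markers were picked with their values in view. So were Gsk3b and Kmt2c, whose probe sets disagreed. Alternatives comprised quantile normalization, median centring, leaving out the dimmest 40% of probe sets, a trended and a robust eBayes, averaging a gene's probe sets, the replicate number as a block, and each array left out. The replicate 1 arrays' deviations from their group means had a correlation of 0.0355 over all probe sets that are not controls. With 2 arrays per group, those of the replicate 2 arrays are mirror images and add nothing. The numbers were therefore not taken as pairs.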

Additional observations from a re-analysis of the deposited data

How the results depend on the processing

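The call for Cebpa rests on small margins: 1 of 5 family genes was called as reported, 0 after centring each array on its median and 2 in eBayes with a trend, where Cebpd joined (limma adjusted p = 0.0147). Leaving out 1 array in turn gave 0 to 1 called family genes, 1050 to 2841 called genes (3169 with all arrays) and 1925 to 6050 called probe sets (6356 with all arrays). Without knockdown replicate 1 there were 1232 called genes and without knockdown replicate 2 there were 1050; a group then held 1 array, assumed to vary like the other group. For Cebpg the log2 fold change was 0.02 at the brightest probe set, -0.043 after quantile normalization, -0.0099 with the mean of its probe sets, -0.019 to 0.054 with 1 array left out (-0.019 without scramble replicate 1) and -0.23 at the dimmest probe set; none was called, and the cause was not tested. The split of all called genes was 1941 higher and 1228 lower as reported, 1514 and 1564 after quantile normalization, and 2383 and 844 after median centring. With the replicate number as a block, 3179 genes, 6508 probe sets and 1 family gene were called, and Cebpa kept its call (limma adjusted p = 0.0285); the numbers were not shown to pair the arrays. Cebpb, Cebpg and Ddit3 were called under none of 11 alternatives. All 9 family probe sets were above background on all 4 arrays; the dimmest of Cebpb, at 3.09 to 3.68, had a standard error of 0.16, against 0.10 for the brightest.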

Other observations

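The genes beside the family members on the chromosomes were also read, taking the 2 nearest tested protein-coding genes on each side. Of these 20 genes, 1 was higher and 4 were lower by limma with adjustment over all genes. Of all genes, 11.4% were higher and 7.18% lower, or 18.5% called in either direction. Cebpg and Cebpa lie next to each other among the tested genes of chromosome 7, with the untested gene Gm45095 between them. Of this pair, Cebpa was called and Cebpg was not. Slc7a10, an amino acid transporter gene on the other side of Cebpa, averaged 2.22 ± 0.26 in knockdown, below background, and 2.79 ± 0.08 in scramble (log2, SD, n = 2 each, limma adjusted p = 0.0341). Near Cebpd, Pkp2, a desmosomal plakophilin gene, read 5.68 and 5.57 in knockdown and 6.63 and 6.46 in scramble, a log2 fold change of -0.92 with a limma adjusted p = 0.0029. Mzt2, directly beside Cebpd, had a log2 change of -0.39 (limma adjusted p = 0.0373). Arhgap9, near Ddit3, was at -0.46 (limma adjusted p = 0.0231). The higher gene, Homez, lies near Cebpe and read 2.71 and 3.12 in knockdown and 2.31 and 2.28 in scramble, where it was at background (limma adjusted p = 0.0293). These genes were named after their values were seen.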
